A study of Mus musculus with 6 samples.

Results

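Voltage-gated calcium channel subunits were followed here through 7 genes: Cacna1c, Cacna1d, Cacna1g, Cacna1h, Cacnb2, Cacna2d1 and Cacna2d2. They were taken by symbol, as every probe set that the platform's annotation gives to exactly 1 gene when that gene is one of the 7. A probe set is the group of short oligonucleotides on an array that together report on a transcript. The 7 genes stand among 18193 genes with such a probe set, and they have 17 probe sets in all. Of these, 15 were bright enough to be tested and 2 were not, and each of the 7 genes kept at least 1 tested probe set.

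A voltage-gated calcium channel is built around a pore subunit that senses the membrane voltage and lets calcium through. Beta subunits bind the pore from the cytoplasm and help bring it to the membrane, and alpha2delta subunits, anchored on the outer face, raise the number of channels there. L-type pores open on strong depolarisation and carry the calcium that triggers contraction, while T-type pores open at more negative voltages and contribute to automaticity. In the embryonic heart both kinds of current are present while the heart tube already beats.

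The 6 arrays hold heart RNA of embryos at E10.5 on the C57BL/6N background. The 3 knockout (KO) arrays come from embryos with a global gene trap of Rnd3 (RhoE), an insertion that interrupts the transcript in every tissue, and the 3 wild-type (WT) arrays come from embryos without it. According to the design text the embryos were littermates and the knockout dies in mid-gestation from this stage on, but no label says which arrays share a litter or whether an array holds 1 heart or a pool. P-values therefore measure only the spread between these arrays, which may in part be technical.

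The values are MAS5 signals on a linear scale, and the number of arrays, 3 per group, limits the precision. The trapped gene read 5.89, 12.3 and 121 on the KO arrays, against 909, 954 and 862 on the WT arrays. A low-signal limit was set on each array at the 40th percentile of its probe sets without the controls, and lay between 44.5 and 52.8. Over the tested genes KO array 1 correlated more closely with the WT arrays (r = 0.980 to 0.981) than with KO array 2 (0.976) or KO array 3 (0.978), so results that rest on it are also given without it. KO array 3 correlated about equally with KO array 2 and with WT array 3 (0.975 each). The lowest value was that of KO array 2 with WT array 1 (0.970). Xist, transcribed from the inactive X chromosome of female cells, read 539, 8884 and 28.4 on KO arrays 1, 2 and 3, and 10251, 12474 and 11878 on the WT arrays. The Gapdh signal ratio 3' over 5', which is read as a measure of RNA quality, was 0.969 ± 0.0274 in KO and 1.11 ± 0.0175 in WT (SD, n = 3 each), with no overlap. The part of Xist and of this ratio in the results below was not tested beyond the values given beside them. The tissue label was borne out by the cardiomyocyte markers, 16 of 16 tested, whose summed signal was 370565 to 411494 in KO and 387679 to 423072 in WT.

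None of the 7 genes passed the test in KO against WT hearts, by limma at an adjusted p of 0.05 over all genes tested, where 1.27% of 12712 genes did. None of their 15 tested probe sets passed either, against 0.595% of 27404 probe sets. At an unadjusted p under 0.05 there were 2 of the 7 genes, Cacna1d and Cacna2d2, where 20.3% of all genes reach that level, and 5 of the 15 probe sets, where 16.8% of all probe sets do. For 5 of the 15 probe sets the KO and WT arrays did not overlap, against 23.1% of all probe sets. In 3 of these the KO arrays lay above (10.1% of all probe sets) and in 2 below (13.0%). By sign, 8 probe sets were positive and 7 negative, with a median log2 change of 0.04, where the median over all tested probe sets was -0.03. The median size of the change regardless of sign was 0.33 for these 15 and 0.19 for all tested probe sets. By gene, with the brightest probe set of each, the order was reversed, at 0.14 for the 7 genes and 0.17 for all tested genes. Of the 2 below, 1441608_at of Cacna2d1 was above the low-signal limit on WT arrays only and passed the filter through them. Without it the groups did not overlap in 4 of 14 probe sets, 3 above and 1 below, and 4 had an unadjusted p under 0.05, with a median change of 0.059 and a median size of 0.30. In whole-heart RNA, fewer cells of a type and less RNA per cell cannot be told apart.

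**Figure D1:**
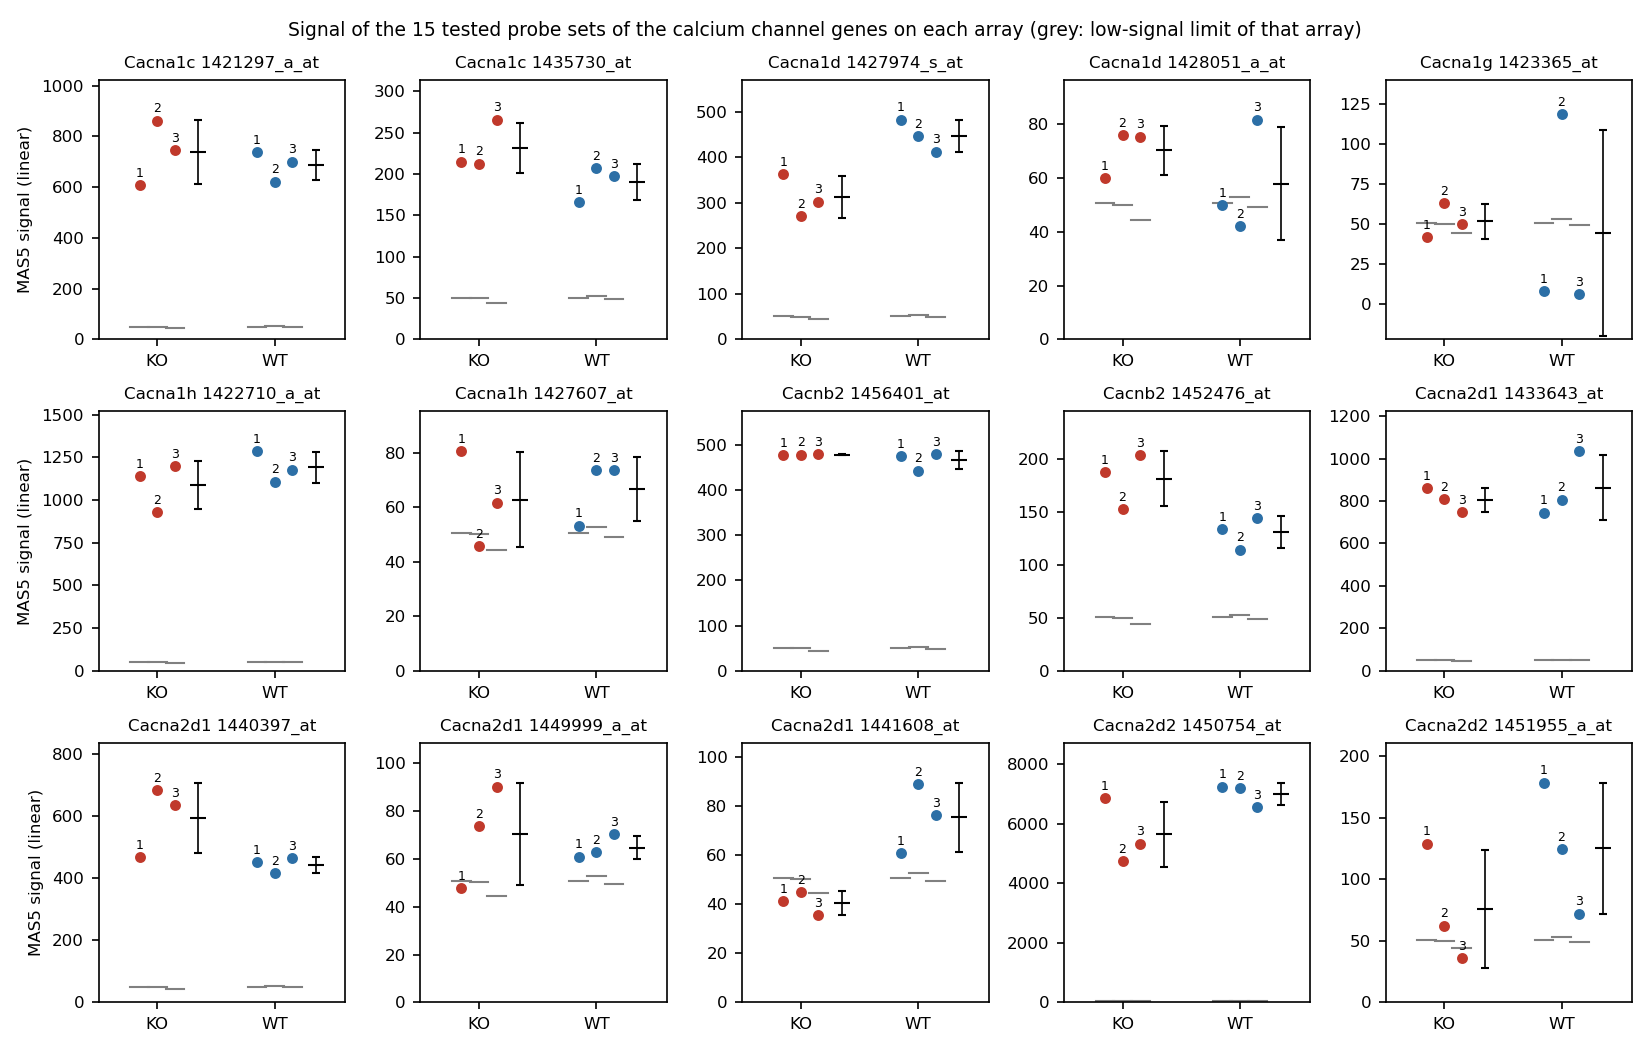
MAS5 signal (linear, vertical axis) of each tested probe set on the 3 KO arrays (red, numbered) and the 3 WT arrays (blue, numbered), with the group mean and SD as black bars and each array's low-signal limit as grey dashes. The KO points of Cacna1d 1427974_s_at lie at 271 to 363, below all WT points at 413 to 483, while those of Cacna1g and several dim probe sets lie near the limit.

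Cacna1c encodes the pore of the main L-type channel of heart muscle, and mouse embryos without it do not survive gestation. Its gene lies on GRCm38.p6 chromosome 6 from 118587240 to 119197384. The brighter of its 2 probe sets, 1421297_a_at, read 607, 862 and 746 in KO hearts and 738, 622 and 701 in WT hearts. KO array 1 was the lowest and KO array 2 the highest of all 6, so the groups overlapped. The change was 0.09 on the log2 scale (SE 0.14, 95% interval -0.22 to 0.41, adjusted p = 0.788 over probe sets and 0.745 over genes). Its sign rested on KO array 2, without which it was -0.026, and it was 0.23 without KO array 1.

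The other Cacna1c probe set, 1435730_at, read 215, 212 and 266 in KO hearts and 166, 207 and 197 in WT hearts. All KO arrays lay above all WT arrays, by a small margin between KO array 2 and WT array 2. The log2 change was 0.28 (SE 0.17, 95% interval -0.09 to 0.65) and did not pass (adjusted p = 0.436). It was 0.18 without KO array 3 or without WT array 1, and 0.11 with Xist as a covariate. No Cacna1c probe set passed the test, and the intervals reach from a modest decrease to a modest increase.

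Cacna1d encodes the L-type pore that opens at more negative voltages and is known from the sinoatrial node and the atria. It had the lowest p of the 7 genes, at rank 519 of all genes tested. Its gene lies on chromosome 14 from 30039941 to 30491156, on the minus strand. The probe set 1427974_s_at, whose suffix marks probes shared by several transcripts, read 363, 271 and 303 in KO hearts and 483, 447 and 413 in WT hearts. Every KO array was below every WT array, and KO array 2 was the lowest. The means were 312 ± 46.5 in KO and 447 ± 35.1 in WT (SD, n = 3 each). The log2 change was -0.53 (SE 0.15, 95% interval -0.85 to -0.20), with an adjusted p of 0.113 over probe sets and 0.0821 over genes.

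KO array 1 was the KO array closest to the WT arrays for this probe set. Without it the log2 change was -0.64 (SE 0.14), and it then passed over genes (adjusted p = 0.0295) and over probe sets (0.0469), in a setting where 7.21% of all genes and 3.41% of all probe sets passed. KO array 1 was singled out because it resembles the WT arrays, so a larger difference without it is built into that choice. Without KO array 2, the farthest from the WT arrays, the change was -0.43 (adjusted p = 0.162 over genes). With Xist as a covariate the change was -0.61 (SE 0.19, adjusted p = 0.120). Among the KO arrays, Cacna1d was lowest on KO array 2, the one with high Xist.

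The second Cacna1d probe set, 1428051_a_at, was dim. It read 59.9, 75.9 and 75.4 in KO hearts and 49.9, 42.2 and 81.8 in WT hearts, above the limit on the 3 KO arrays and on 1 WT array. Its log2 change had the other sign, 0.33 (SE 0.35, 95% interval -0.45 to 1.11, adjusted p = 0.683), and was 0.13 without WT array 2 and 0.61 without WT array 3. The difference of -0.86 between the changes of these probe sets gave an exact two-sided permutation p of 0.2, adjusted to 0.4 over 8 such pairs of probe sets, where 0.1 is the smallest p that 3 against 3 arrays allow. With both probe sets averaged the Cacna1d change was -0.10 (adjusted p = 0.847). Which transcripts each probe set reads was not analysed here.

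RefSeq gives Cacna1d 2 start sites in the promoter table used here, and their upstream windows are shown because its probe sets differ in sign and because the gene has the lowest p. The single window of Cacna2d2, a gene on the plus strand, is shown beside them, since that gene has the next lowest p. Each holds the 250 bases before the start on the gene's strand, 5' to 3', from GRCm38.p6. Matches on either strand to the letters of an E-box (CANNTG), the core of a GATA site (GATAA), the TATA box (TATAAA) and the core of a T-box site (GGTGTG) are marked by capitals.
Cacna1d start 1, chr14:30491157-30491406: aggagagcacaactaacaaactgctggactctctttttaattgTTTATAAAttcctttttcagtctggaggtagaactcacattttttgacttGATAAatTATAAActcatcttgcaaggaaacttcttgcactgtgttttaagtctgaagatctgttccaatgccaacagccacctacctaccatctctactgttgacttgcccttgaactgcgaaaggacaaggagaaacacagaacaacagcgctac
Cacna1d start 2, chr14:30353487-30353736: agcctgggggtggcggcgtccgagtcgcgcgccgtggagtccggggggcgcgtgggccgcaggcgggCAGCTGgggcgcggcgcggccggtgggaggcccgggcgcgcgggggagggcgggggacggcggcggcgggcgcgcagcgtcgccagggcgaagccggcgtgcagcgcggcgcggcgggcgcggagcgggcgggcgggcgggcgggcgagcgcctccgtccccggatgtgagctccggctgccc
Cacna2d2, chr9:107399630-107399879: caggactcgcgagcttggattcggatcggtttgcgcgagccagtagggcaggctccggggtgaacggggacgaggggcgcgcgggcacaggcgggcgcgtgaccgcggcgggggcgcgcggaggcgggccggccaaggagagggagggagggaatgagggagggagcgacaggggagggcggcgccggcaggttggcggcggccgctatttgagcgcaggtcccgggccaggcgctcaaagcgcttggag
The first Cacna1d window, at the 5' end of the gene, has 39.6% G or C and holds 1 GATAA and 3 TATAAA matches, of which 1 pair overlaps on opposite strands in the run of capitals TTTATAAA. The second window lies inside the gene, has 86.4% G or C and holds 1 CANNTG match. The Cacna2d2 window has 74.4% G or C and holds none of these letters. It runs past the 5' end of the gene as RefSeq places it, at 107399733, so the start site used lies inside the gene. Over all 32851 windows of the table, the median G or C share was 52.4%, and 66.2% held CANNTG, 22.6% GATAA, 12.4% TATAAA and 16.3% GGTGTG. A match is a description of the letters, not of a bound site. In all, 9 windows matched 5 of the 7 genes, with none for Cacna1g or Cacna1h.

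Cacna1g and Cacna1h encode T-type pores. Cacna1g, on chromosome 11 from 94408391 to 94474400, is known for pacemaking and conduction in the adult mouse. Its only probe set, 1423365_at, read 41.9, 63.1 and 49.9 in KO hearts and 8.12, 118 and 6.37 in WT hearts. The WT arrays spread on both sides of the KO arrays, and the signal passed the limit on 2 KO arrays and 1 WT array. The fitted log2 change of 1.48 (SE 0.99, 95% interval -0.69 to 3.64, adjusted p = 0.484) became -0.30 when values below the limit were set to it, so no direction can be given.

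Cacna1h, on chromosome 17 from 25374285 to 25436334, is the T-type pore best known from the embryonic mouse heart. Its bright probe set 1422710_a_at read 1138, 929 and 1198 in KO hearts and 1286, 1108 and 1177 in WT hearts. The groups overlapped, with KO array 2 lowest. The log2 change was -0.14 (SE 0.12, 95% interval -0.40 to 0.13, adjusted p = 0.617). It was -0.026 without KO array 2 and -0.34 with Xist as a covariate, neither past the test. The dim probe set 1427607_at read 80.7, 45.9 and 61.8 in KO hearts and 53.3, 73.7 and 73.6 in WT hearts, a change of -0.11 (SE 0.34, adjusted p = 0.903). Neither T-type gene passed, and Cacna1h was measured with the narrower interval.

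**Figure D2:**
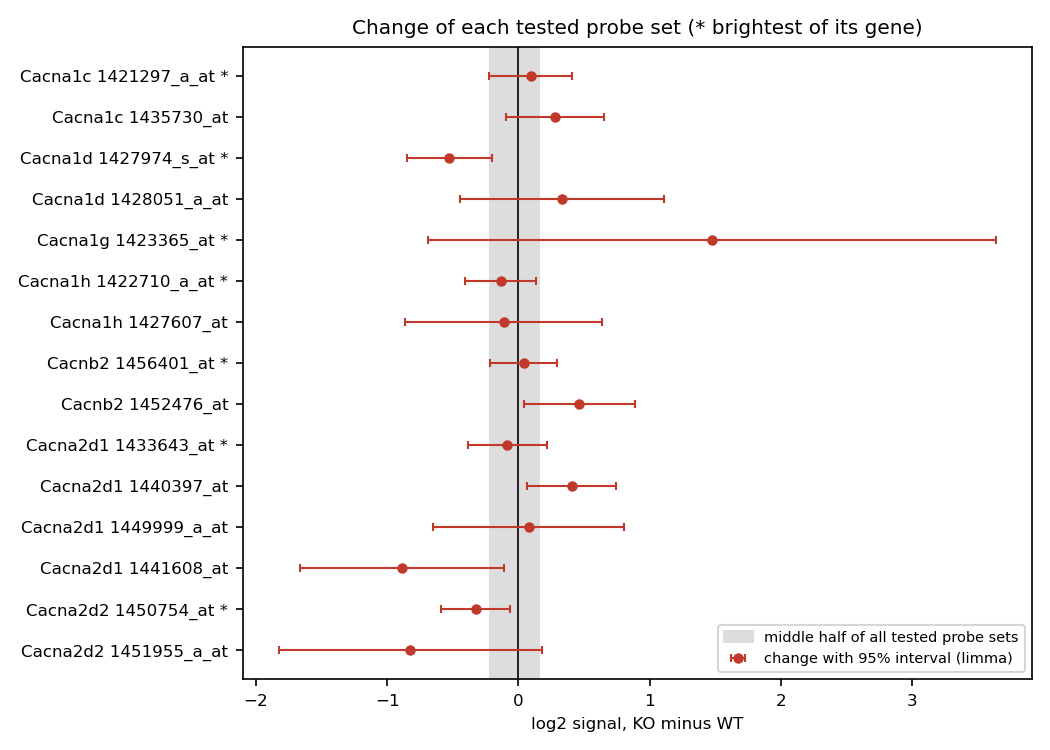
Log2 signal, KO minus WT, of the 15 tested probe sets with limma's 95% interval (horizontal axis), grouped by gene, the brightest of each gene starred. The grey band is the interquartile range over all tested probe sets, -0.22 to 0.16, and the widest interval is that of Cacna1g, from -0.69 to 3.64.

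Cacnb2 encodes the main beta subunit of the heart, and its loss in mouse cardiomyocytes is lethal before birth. It lies on chromosome 2 from 14603861 to 14988811. Its brighter probe set, 1456401_at, was nearly constant, at 477, 478 and 479 in KO hearts and 475, 442 and 480 in WT hearts. Its log2 change of 0.04 had a 95% interval of -0.22 to 0.29 (SE 0.12, adjusted p = 0.900). The other probe set, 1452476_at, read 188, 153 and 204 in KO hearts and 134, 115 and 144 in WT hearts. All KO arrays were above all WT arrays, with means of 181 ± 26.0 in KO and 131 ± 15.2 in WT (SD, n = 3 each). The change was 0.47 (SE 0.19, 95% interval 0.04 to 0.89) and did not pass after adjustment (0.250). With Xist as a covariate it was 0.24 (adjusted p = 0.704). The difference of -0.43 between the changes of these probe sets reached the smallest exact p possible, 0.1, or 0.4 adjusted over the 8 pairs.

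Cacna2d1 encodes the principal alpha2delta subunit of heart and skeletal muscle, the target of gabapentin. It lies on chromosome 5 from 15934264 to 16374511 and has 5 probe sets, of which 4 were tested. The brightest, 1433643_at, read 859, 810 and 748 in KO hearts and 744, 807 and 1035 in WT hearts. WT array 3 stood above the rest, and the groups overlapped. The change was -0.09 (SE 0.14, 95% interval -0.39 to 0.22, adjusted p = 0.797), and 0.053 without WT array 3.

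Probe set 1440397_at of Cacna2d1 read 467, 682 and 634 in KO hearts and 452, 415 and 464 in WT hearts. KO array 1 was only just above the highest WT array, while KO arrays 2 and 3 were well above. The means were 594 ± 113 in KO and 444 ± 25.6 in WT (SD, n = 3 each), a log2 change of 0.41 (SE 0.15, 95% interval 0.07 to 0.74, adjusted p = 0.214). Without KO array 1 it was 0.57 (SE 0.13, adjusted p = 0.0478), and without KO array 2 it was 0.30 (adjusted p = 0.407). The summed signal of the neural crest markers moved in the same array order within KO, at 3870, 6765 and 5222 on KO arrays 1, 2 and 3, against 3984, 4190 and 3517 on the WT arrays. Of that list 5 of 8 genes were tested and none passed. Its endothelin receptor gene Ednrb, the largest part of the sum, read 2759, 4631 and 3344 on KO arrays 1, 2 and 3, and 2096 to 2762 in WT. Its defining marker Sox10 did not share that order, at 143, 127 and 105 on the same KO arrays and 104 to 152 in WT. The order of the sum was not particular to this list. The endothelial markers summed to 7253, 8385 and 7984 on KO arrays 1, 2 and 3, against 7029 to 7860 on the WT arrays. The part of either cell type in the Cacna2d1 values was not tested.

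The dimmer probe sets of Cacna2d1 differed in sign. The signal of 1441608_at was 41.2, 44.7 and 35.4 in KO hearts, below the limit on all 3 arrays, and 60.7, 88.9 and 76.3 in WT hearts. It was at least 1.54-fold lower in KO, with each KO array set to its limit (adjusted p = 0.237). As it was tested through the WT arrays alone, a difference in this direction follows from the filter. The signal of 1449999_a_at was 47.7, 73.5 and 90.1 in KO hearts and 60.9, 62.8 and 70.2 in WT hearts, a change of 0.08 (SE 0.33, adjusted p = 0.932), or 0.34 without KO array 1. The untested 1425861_x_at, whose suffix marks probes that can cross-hybridise, lay between 17.8 and 34.0 in KO hearts and between 11.2 and 42.0 in WT hearts. Between its brightest probe set and the other 3, the differences in change gave adjusted exact permutation p of 0.4 to 0.8.

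Cacna2d2 encodes the alpha2delta subunit mutated in the ducky mouse, where its loss affects the cerebellum. It lies on chromosome 9 from 107399733 to 107529346. Probe set 1450754_at read 6865, 4744 and 5337 in KO hearts and 7251, 7200 and 6565 in WT hearts. KO array 1 lay within the WT range, and KO arrays 2 and 3 lay below it. The means were 5649 ± 1095 in KO and 7005 ± 382 in WT (SD, n = 3 each). The log2 change was -0.33 (SE 0.12, 95% interval -0.59 to -0.06), with an adjusted p of 0.206 over probe sets and 0.167 over genes.

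Without KO array 1 the Cacna2d2 change was -0.48 (SE 0.09), and it then passed over genes (adjusted p = 0.0193) and over probe sets (0.0283). Without KO array 2 it was -0.21 (adjusted p = 0.338 over genes). Leaving out KO array 1 let 2 of the 7 genes pass, Cacna1d and Cacna2d2, where 7.21% of all genes did. Of the 15 probe sets 3 then passed, with 1440397_at of Cacna2d1 as the other one, where 3.41% of all probe sets did. As KO array 1 was left out for its likeness to the WT arrays, these counts are not independent evidence of a change. With Xist as a covariate the Cacna2d2 change was -0.42 (adjusted p = 0.189). Its dimmer probe set 1451955_a_at read 129, 62.4 and 35.9 in KO hearts and 179, 125 and 72.0 in WT hearts, with overlap and a change of -0.82 (SE 0.46, adjusted p = 0.392). That change was -1.30 without KO array 1, -0.38 without KO array 3, -0.52 without WT array 1 and -0.40 with Xist as a covariate, none of them past the test. The untested 1426185_at was at 5.55 to 8.95 in KO hearts and 7.63 to 24.0 in WT hearts, below the limit on every array. Averaged over all 3 probe sets, the untested one included, Cacna2d2 had -0.72, which did not pass (adjusted p = 0.196).

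**Figure D3:**
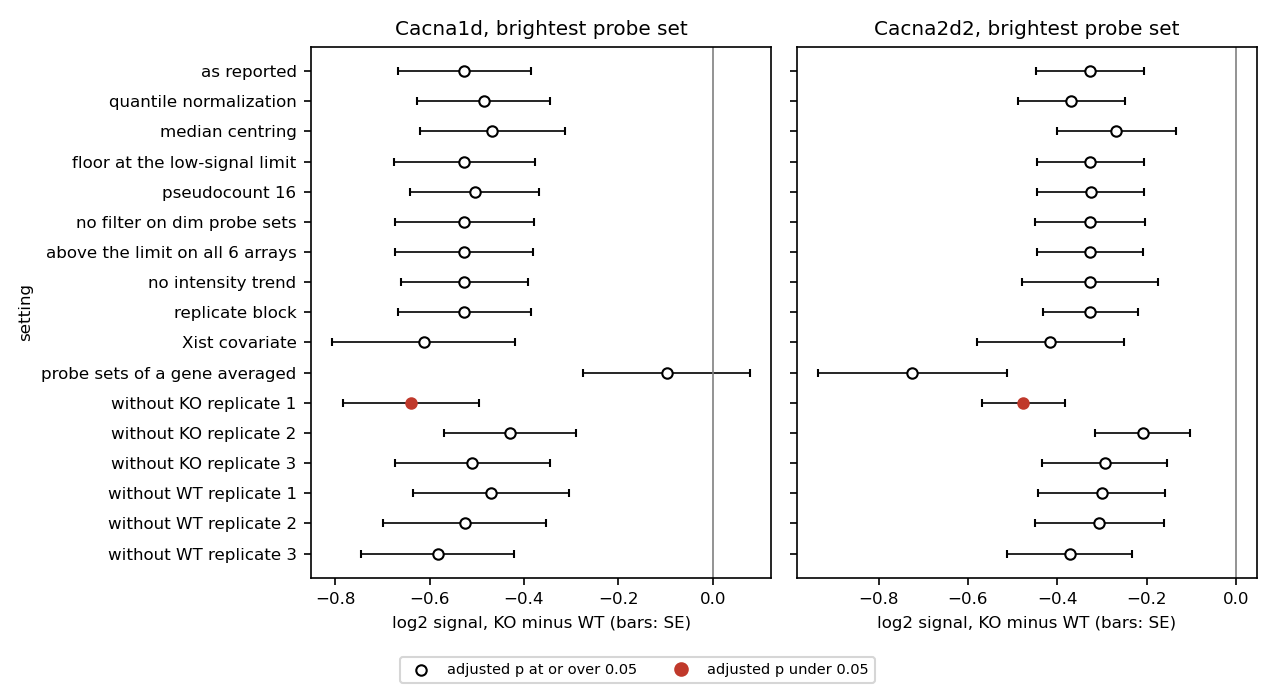
Log2 signal, KO minus WT, of the brightest probe sets of Cacna1d (left) and Cacna2d2 (right) with limma's SE as bars (horizontal axis), under each way of processing the values (vertical axis). Filled points passed an adjusted p of 0.05 over genes, which both did without KO replicate 1 (-0.64 and -0.48) and under no other setting drawn.

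Cacna1d 1427974_s_at, Cacna2d2 1450754_at and Cacna2d1 1440397_at, taken here for their low p, shared an order of the KO arrays. In all 3 probe sets KO array 1 lay closest to the WT arrays and KO array 2 farthest from them. The whole arrays had the same order, so it is not particular to these probe sets. Over all tested genes, r with the WT arrays was 0.980 to 0.981 for KO array 1, 0.974 to 0.975 for KO array 3 and 0.970 to 0.9715 for KO array 2. Relative to the WT mean, KO array 2 was at -0.72 for Cacna1d, -0.56 for Cacna2d2 and 0.62 for Cacna2d1 on the log2 scale, while KO array 1 was at -0.30, -0.03 and 0.08. Cacna2d1 1441608_at and Cacnb2 1452476_at, which also had an unadjusted p under 0.05, did not share this order. There KO array 2 was closest to the WT mean (-0.73 and 0.23) and KO array 3 farthest (-1.07 and 0.64). The signal of 1441608_at was below the low-signal limit on every KO array, so its order among them cannot be interpreted.

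**Figure D4:**
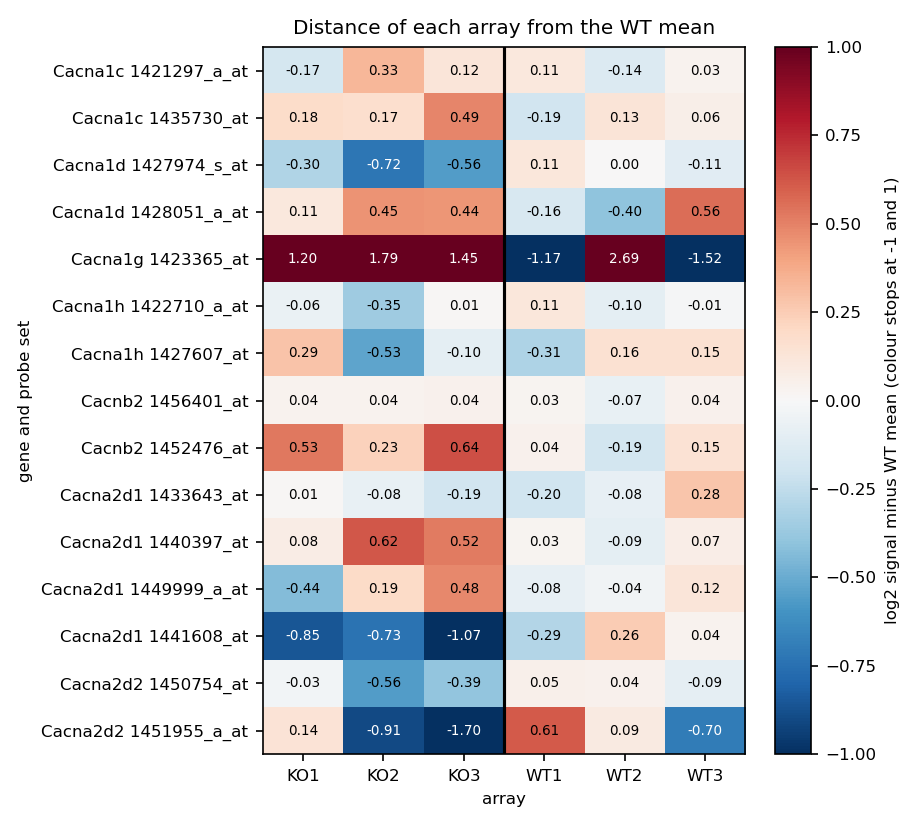
Log2 signal minus the WT mean of each tested probe set (rows) on each array (columns, KO left of the line and WT right of it), with the colour scale stopping at -1 and 1. KO array 2 stands farthest below the WT mean for Cacna1d 1427974_s_at (-0.72) and Cacna2d2 1450754_at (-0.56), and Cacna1g spans -1.52 to 2.69 over the arrays.

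The tested gene most like each of the 7 over the arrays, by Pearson's r of log2 signal (n = 6 arrays), was Syncrip for Cacna1d (r = 0.999), an RNA-binding protein gene that read 2619, 2194 and 2356 in KO hearts and 3074, 2957 and 2845 in WT hearts. Irf2bp1 was most like Cacna2d2 (0.994), Lactb2 most like Cacna1h (0.991) and Septin7 most like Cacna2d1 (0.990). Zfp296 was most like Cacnb2 (0.987), Tbc1d5 most like Cacna1g (0.981) and Camsap1 most like Cacna1c (0.979). With 6 points such values are common: 234 genes had r over 0.95 with Cacna1d and 118 with Cacna2d2.

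Other genes of the pathway were read from lists of subunits, regulators, partners and conduction genes. Of 19 other calcium channel subunit genes 8 were tested and none passed in either direction, with a median log2 change of -0.13, where the median over all genes was -0.04. Cacna1a, a pore known from neurons, read 133, 121 and 70.0 in KO hearts and 211, 135 and 164 in WT hearts, a change of -0.68 (SE 0.28, adjusted p = 0.198). Cacna1s, the L-type pore of skeletal muscle, had -1.02 (SE 0.46, adjusted p = 0.244), and Cacng4, of the gamma subunit family, had -0.68 (SE 0.35, adjusted p = 0.305). The neuron markers, of which 10 of 13 were tested and none passed, summed to 1339 to 1603 in KO and 1539 to 1808 in WT, and their part in the Cacna1a values was not tested.

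Of 24 regulators and anchors of calcium channels 19 were tested and none passed, with a median of -0.03. Sri encodes sorcin, a calcium-binding protein that binds the L-type pore and the ryanodine receptor. It read 4501, 4442 and 5301 in KO hearts and 3256, 3622 and 3657 in WT hearts, all KO arrays above all WT arrays, with a change of 0.43 (SE 0.09, adjusted p = 0.0535). Akap5, which anchors protein kinase A and calcineurin at the channel, read 352, 274 and 311 in KO hearts and 515, 454 and 422 in WT hearts, without overlap, a change of -0.57 (SE 0.14, adjusted p = 0.0641). Cav3, the caveolin of muscle, had 0.30 (SE 0.10, adjusted p = 0.143).

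None of the 12 tested genes among 13 partners of the channel in excitation-contraction coupling passed, with a median of 0.04. Jph2, which holds the sarcoplasmic reticulum close to the surface membrane, had -0.36 (SE 0.11, adjusted p = 0.103). Ryr2, the calcium release channel that L-type current opens, had -0.26 (SE 0.09, adjusted p = 0.140). Casq2, the calcium buffer of the reticulum, had 0.66 (SE 0.24, adjusted p = 0.168).

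Of 13 pacemaker and conduction genes 9 were tested, 2 fell, none rose and 7 did not pass, where 0.488% of all genes fell. Tbx3, a repressor that keeps the conduction system apart from working muscle, read 434, 347 and 396 in KO hearts and 683, 764 and 618 in WT hearts (-0.81, SE 0.13, adjusted p = 0.0344). Bmp4, a secreted ligand of the outflow tract and sinus region, read 1627, 1803 and 1576 in KO hearts and 2323, 2449 and 2293 in WT hearts (-0.50, SE 0.09, adjusted p = 0.0374). Both had all KO arrays below all WT arrays, as 13.0% of all tested probe sets did. Among these was 1427974_s_at of the L-type pore gene Cacna1d, without passing, while its other probe set 1428051_a_at overlapped (0.33). Tbx3 and Bmp4 were known to pass when the list was drawn up, so the count is not independent evidence. The others did not share an order of the KO arrays. Shox2, a factor of the sinus region, read 2181, 2074 and 96.2 in KO hearts and 2448, 2303 and 1531 in WT hearts. Tbx18 read 2441, 2772 and 1465 in KO hearts and 2504, 2307 and 2525 in WT hearts. Kcnj3 was also lowest on KO array 3 (295, 460 and 213 in KO). Isl1 and Hcn2 were highest there among the KO arrays, at 598, 800 and 1000 and at 35.5, 52.3 and 88.4. The summed signal of the list was 11807, 13036 and 9312 in KO and 12226 to 13962 in WT. No gene of the 12712 passed without WT array 1 or WT array 2, or with the probe sets of a gene averaged.

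**Figure D5:**
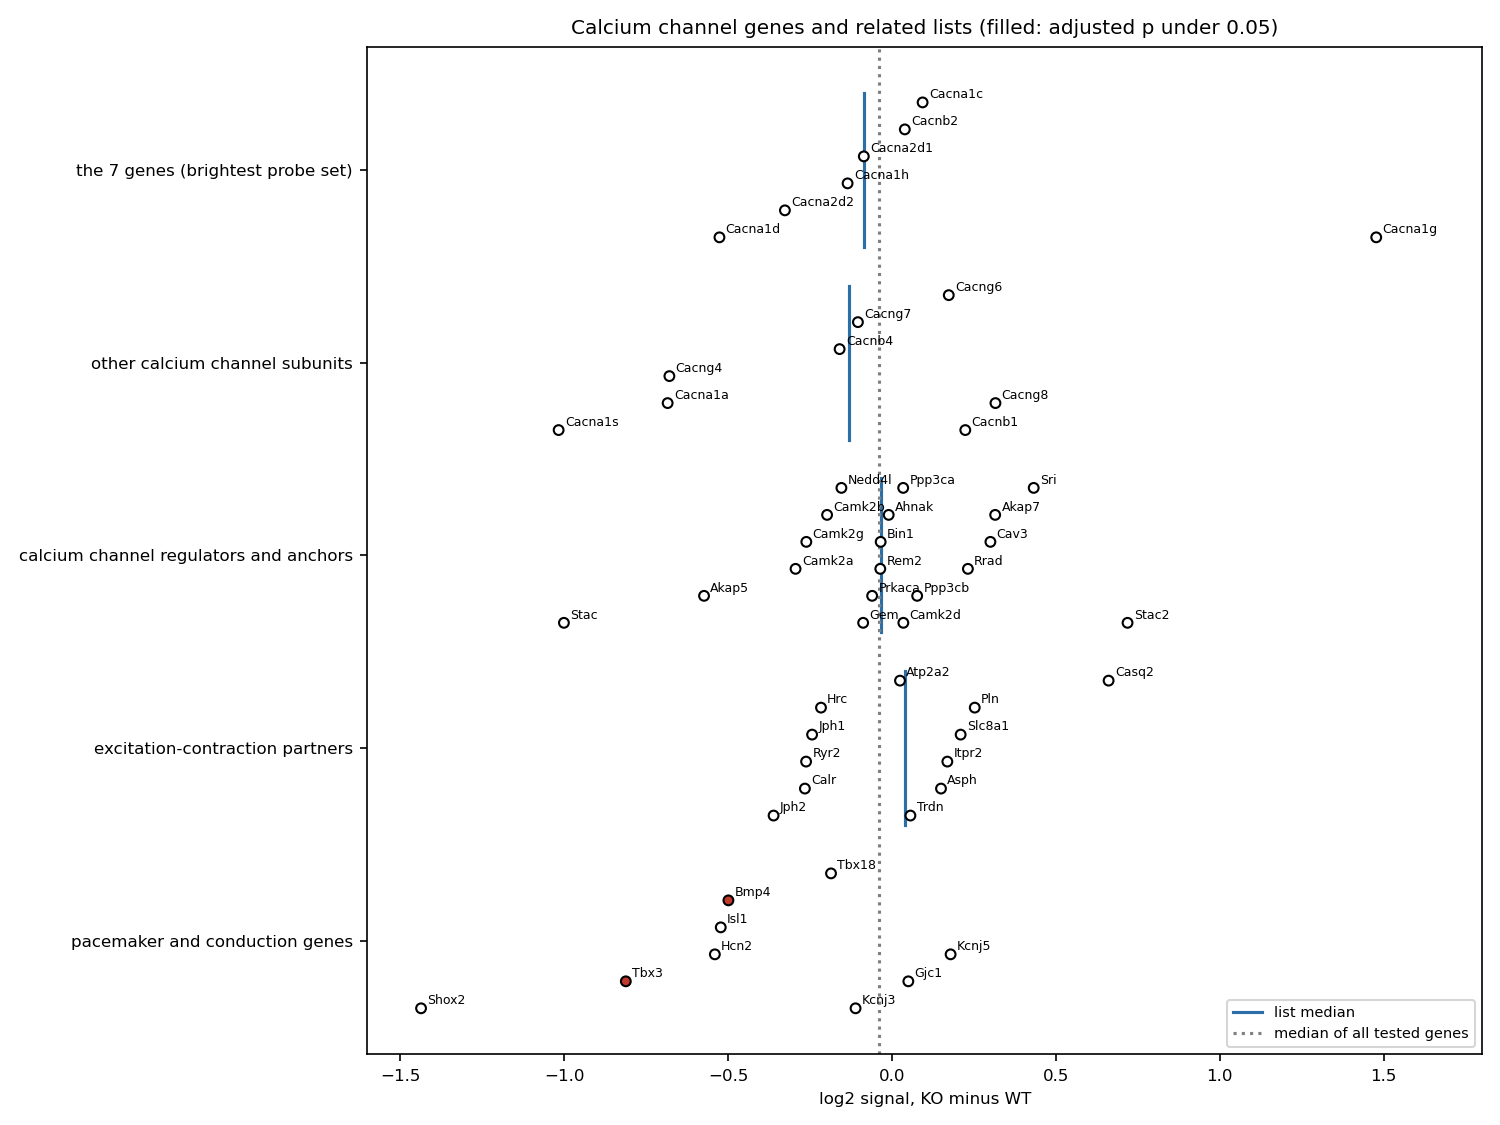
Log2 signal, KO minus WT (horizontal axis), of the 7 channel genes by their brightest probe set and of the tested genes of 4 related lists, with the list medians as blue lines (none for the conduction genes, 2 of which were known to pass) and the median of all tested genes (-0.04) as a dotted line. Filled points, Tbx3 (-0.81) and Bmp4 (-0.50), passed an adjusted p of 0.05.

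Of the 4 sex-linked transcripts, Eif2s3y, Uty and Kdm5d rose (1.99, 1.75 and 1.73, adjusted p = 0.0360, 0.0344 and 0.0344), where 0.787% of all genes rose, and Xist had -4.48 without passing (adjusted p = 0.120). On KO array 2, where Xist was high, Eif2s3y read 793, against 312 to 551 on the WT arrays, and Uty and Kdm5d also lay above every WT array. The share of male and female tissue and the genotype cannot be told apart. With Xist as a covariate none of the 7 channel genes passed, as without it, and of all 12712 genes 6 did. As Xist itself did not overlap between the groups, that fit cannot separate sex from genotype.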

How the data were processed

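Signal intensity per probe set was deposited by the authors on a linear scale, with MAS5 and the Affymetrix Expression Console named in the submitters' processing notes. No label used here gives their settings. The mean of each array, trimmed by 2% on either side, was 500, and arrays were not scaled again. After leaving out 64 control probe sets, 45037 remained, of which 34945 had 1 gene symbol in the platform's annotation, 932 several and 9160 none. By gene identifier 34741 matched RefSeq, which updated 0 symbols and gave gene positions and promoter windows (GRCm38.p6).

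Signals were taken to log2. A probe set was tested if above its array's 40th percentile on at least 3 of the 6 arrays. KO minus WT was fitted with limma 3.58.1 under R 4.3.3, with lmFit and with eBayes using an intensity trend, once over the brightest probe set of 12712 genes and once over 27404 probe sets, adjusted by Benjamini and Hochberg's method (threshold 0.05). Differences between probe sets of a gene were tested by exact permutation. Where a whole group lay below the limit, the dim group was set to the higher of limit and signal for an "at least" fold. For lists, the members past the threshold are named or, where none passed, up to 3 with the lowest p. The 7 genes, lists, tests and alternatives were chosen with earlier results of these data known. Alternatives covered normalization, centring, floor, pseudocount, filter, trend, replicate block, an Xist covariate, averaging of probe sets and leaving out each array. Figures were drawn with matplotlib 3.10.9.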

Additional observations from a re-analysis of the deposited data

How the results depend on the processing

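Over 16 alternatives, 220 of 226 computed changes of the 7 genes and their probe sets kept their sign. The exceptions were Cacna1g with a floor at the limit (-0.30), Cacna2d1 1449999_a_at with the Xist covariate (-0.086), and 4 values with 1 array left out. These were Cacna1c without KO array 2 (-0.026, in a range up to 0.23 over the arrays left out), Cacna2d1 without WT array 3 (0.053, range from -0.18), Cacna1h 1427607_at without KO array 2 (0.095, range from -0.31) and Cacna2d1 1449999_a_at without KO array 3 (-0.12, range up to 0.34). No such value passed the test. Cacna1g and the other probe sets below the limit on some array had no value with the filter on all 6 arrays. Counts of the 7 genes past the threshold ran from 0 to 2 and of their probe sets from 0 to 3 when 1 array was left out, above 0 without KO array 1 alone; every other alternative run gave 0. The count over all genes, 162, was 83 with median centring, 1 without the filter, 291 with signal above the limit on all 6 arrays, 1 without the intensity trend, 6 with the Xist covariate and 0 with probe sets averaged. It ran from 0 to 916 when 1 array was left out. Of the genes past the threshold 61.7% were higher in KO, and 80.7% with median centring. The cause of these shifts was not tested.

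The replicate number as a block (replicate block) gave 189 genes and changed no call among the 7, with Cacna1d at -0.53 (adjusted p = 0.0770) and Cacna2d2 at -0.33 (adjusted p = 0.120). Same-numbered arrays deviated together weakly, with r = 0.02, 0.06 and 0.02, so the numbers were not taken as pairs. Dim probe sets, such as that of Cacna1g, limit what can be said of their genes.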

Other observations

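Markers of the other cell types that a dissected heart could hold were read in the same fit. All 8 smooth muscle markers were tested and none passed (median log2 change -0.14), with summed signals of 47972 to 58479 in KO hearts and 57034 to 59835 in WT hearts. All 10 endothelial markers were tested and none passed (median 0.06), as was the case for 6 of 8 erythroid markers (median 0.00) and 2 of 9 markers of skeletal muscle precursors (median 0.01). Of 13 liver and yolk sac endoderm markers, 8 were tested, all with a negative change and a median of -0.84. Of these, Ambp was below the low-signal limit on every KO array (15.8 to 39.5), so a negative change there follows from the filter. Alb, serum albumin, fell (adjusted p = 0.049997), where 0.488% of all genes fell. It read 51.9, 36.8 and 20.7 in KO hearts, above the limit on KO array 1 alone, and 87.8, 148 and 183 in WT hearts. The list summed to 505 to 2196 in KO hearts and 1736 to 8024 in WT hearts. The neural crest markers had a median of 0.15, the neuron markers -0.15 and the cardiomyocyte markers -0.07, with no member past the test.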
